A study of Mus musculus with 10 samples.

Results

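The genes described here are 36 genes of the lysosome, the acidic organelle in which cells break down proteins, sugar chains and lipids. They were taken by symbol from the 52178 Ensembl genes of the deposited table, and each of the 36 symbols matched 1 gene. They comprise 12 glycosidases, 3 sulfatases, 4 lipid hydrolases, 8 peptidases, 3 soluble cofactors and 6 membrane proteins. Their RNA was measured in pancreatic islets, the endocrine cell clusters that release insulin and glucagon, in 10 RNA-seq libraries. The exercise group (libraries exercise 6 to 10, n = 5) came from male C57Bl/6 retired breeders trained on a treadmill for 1 h a day, 5 days a week, over 2 weeks. Belt speed was 17 cm/s with the treadmill inclined by 5 degrees, and 3 days of acclimatization came first. The sedentary group (libraries sedentary 1 to 5, n = 5) came from mice of the same strain and sex that were not trained. All islets were freed with collagenase, picked by hand and plated in medium with 11 mM glucose. The labels give no age, and they do not say how many mice stand behind a library or whether islets of several mice were pooled, so the p-values below rest on differences between libraries, part of which may be technical.

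Lysosomal hydrolases are made as precursors, most of them tagged with mannose 6-phosphate, and delivered to an acidic lumen where each removes 1 kind of bond. The membrane proteins seal that lumen and carry its products out, and many of the genes are known targets of the transcription factor TFEB, which binds E-box sequences in their promoters. Glb1 encodes the beta-galactosidase that is stained to find senescent cells, and a decrease of senescence with exercise is the subject named in the series title. In beta cells the lysosome also degrades surplus insulin granules.

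Promoter windows of 300 bases, from 250 before to 50 after the transcription start, were taken from RefSeq (build GRCm38.p6) for 32 of the 36 genes. Those of Asah1, Ctsb, Ctsh and Npc1 were not used here. The E-box CACGTG, which reads the same on both strands, was found in a window of 10 of the 32 genes (31.2%), against 11.2% of the 11484 genes tested here that had a window and 7.15% of all 32841 windows. Its extended form TCACGTGA, which contains the E-box, was found in 4 of the 32 (12.5%), namely Ctsa, Ctsd, Gla and Mcoln1, against 2.01% of the tested genes. The longer form GTCACGTGAC was found in 0 of the 32 and in 0.705% of the tested genes. These letters were searched as a description and do not show that a factor binds. Windows are printed 5′ to 3′, with each E-box in capitals. The first 3 are shown for Glb1, with 1 E-box starting 48 bases before the start site, for Lamp1, with 4 of them within 61 bases before it, and for Mcoln1, with 2.
Glb1, chr9:114400828-114401127, plus strand: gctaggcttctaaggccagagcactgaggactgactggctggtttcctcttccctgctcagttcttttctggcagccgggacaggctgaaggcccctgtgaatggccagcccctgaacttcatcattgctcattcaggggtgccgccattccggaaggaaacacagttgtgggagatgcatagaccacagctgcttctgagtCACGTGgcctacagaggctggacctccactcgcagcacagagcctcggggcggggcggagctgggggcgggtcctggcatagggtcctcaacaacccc
Lamp1, chr8:13158911-13159210, plus strand: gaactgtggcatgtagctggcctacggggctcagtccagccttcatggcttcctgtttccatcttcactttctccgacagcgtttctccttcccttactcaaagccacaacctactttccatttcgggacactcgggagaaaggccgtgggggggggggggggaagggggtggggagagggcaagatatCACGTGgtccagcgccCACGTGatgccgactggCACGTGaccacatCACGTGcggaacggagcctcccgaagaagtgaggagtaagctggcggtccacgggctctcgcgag
Mcoln1, chr8:3500269-3500568, plus strand: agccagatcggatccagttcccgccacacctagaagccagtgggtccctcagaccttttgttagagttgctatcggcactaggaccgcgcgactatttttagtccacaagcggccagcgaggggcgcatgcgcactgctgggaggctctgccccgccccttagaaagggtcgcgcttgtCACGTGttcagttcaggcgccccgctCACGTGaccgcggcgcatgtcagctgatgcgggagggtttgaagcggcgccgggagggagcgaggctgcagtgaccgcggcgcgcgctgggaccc

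The next windows belong to Lipa and Ctsz, 2 of the genes with lower RNA in exercise islets described below. They hold no E-box, nor does that of Fuca1, which was also lower. Of the 29 genes with a window that did not pass, 10 held an E-box. A link between E-boxes and the change was not tested.
Lipa, chr19:34527425-34527724, minus strand: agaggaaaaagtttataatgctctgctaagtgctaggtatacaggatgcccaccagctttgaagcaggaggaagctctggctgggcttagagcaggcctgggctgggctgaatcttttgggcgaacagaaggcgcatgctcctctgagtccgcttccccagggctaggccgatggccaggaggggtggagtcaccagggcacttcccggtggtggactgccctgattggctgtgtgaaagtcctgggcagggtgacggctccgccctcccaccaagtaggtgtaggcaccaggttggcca
Ctsz, chr2:174438990-174439289, minus strand: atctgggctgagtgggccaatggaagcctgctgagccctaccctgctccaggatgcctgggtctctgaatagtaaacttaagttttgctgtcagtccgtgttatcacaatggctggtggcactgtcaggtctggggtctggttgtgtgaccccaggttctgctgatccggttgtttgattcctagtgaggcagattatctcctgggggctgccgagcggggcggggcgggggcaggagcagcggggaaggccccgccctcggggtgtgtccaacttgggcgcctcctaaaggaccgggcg

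Library totals lay between 15081922 and 23222704 estimated counts, and each of the 36 genes had at least 84 counts in every library. Values are given as CPM, counts per 1000000 of the library size after scaling by trimmed mean of M-values (TMM). Sedentary 1 and 2 stood apart from the other libraries. Beta cell markers summed to 134759 to 190979 CPM in the exercise libraries, against 8151 and 37396 CPM in sedentary 1 and 2 and 136034 to 194263 CPM in sedentary 3 to 5. Small intestinal epithelial markers summed to 321 to 975 CPM in exercise, against 18434 and 25903 CPM in sedentary 1 and 2 and 3969 to 5259 CPM in sedentary 3 to 5. In bulk tissue, fewer cells of a type and less RNA per cell cannot be told apart.

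Of the 36 lysosomal genes, 4 fell and 0 rose in exercise islets (quasi-likelihood test of edgeR, threshold 0.05 on the p adjusted over 15298 genes). An unadjusted p under 0.05 was reached by 8. The largest of these, that of Ctsc (edgeR unadjusted p = 0.0333), ranked only 4243 among the 15298 genes, so p-values this small were common over all genes. Over all tested genes 13.9% passed, 11.4% as lower and 2.44% as higher, so the 11.1% of lysosomal genes that passed lay near the background. The 4 were the fucosidase gene Fuca1, the acid lipase gene Lipa and the cathepsin genes Ctsh and Ctsz. Each was lower in every exercise library than in any sedentary library, a separation seen in that direction for 11.4% of all tested genes. The median log2 fold change was 0.089 over the 36 and -0.00072 over all tested genes. When libraries were scaled to their totals alone, 96.5% of all calls were lower against 82.4% with TMM, and the medians were -0.26 for the 36 and -0.34 for all genes. DESeq2 called 5 lower, the same 4 and Ctsb, and 1 higher, Tpp1, whereas limma-voom called none of the 36, with adjusted p of 0.0512 to 0.0667 for the 4. The 2 methods also differed over all 15298 genes, where DESeq2 called 2642 lower and 1097 higher and limma-voom 339 and 177. The same 4 genes passed, in the same direction, without sedentary 1 and 2, where 8.68% of all tested genes were lower. In that fit the median log2 fold change was -0.014 over the 36 and 0.026 over all tested genes.

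**Figure D1:**
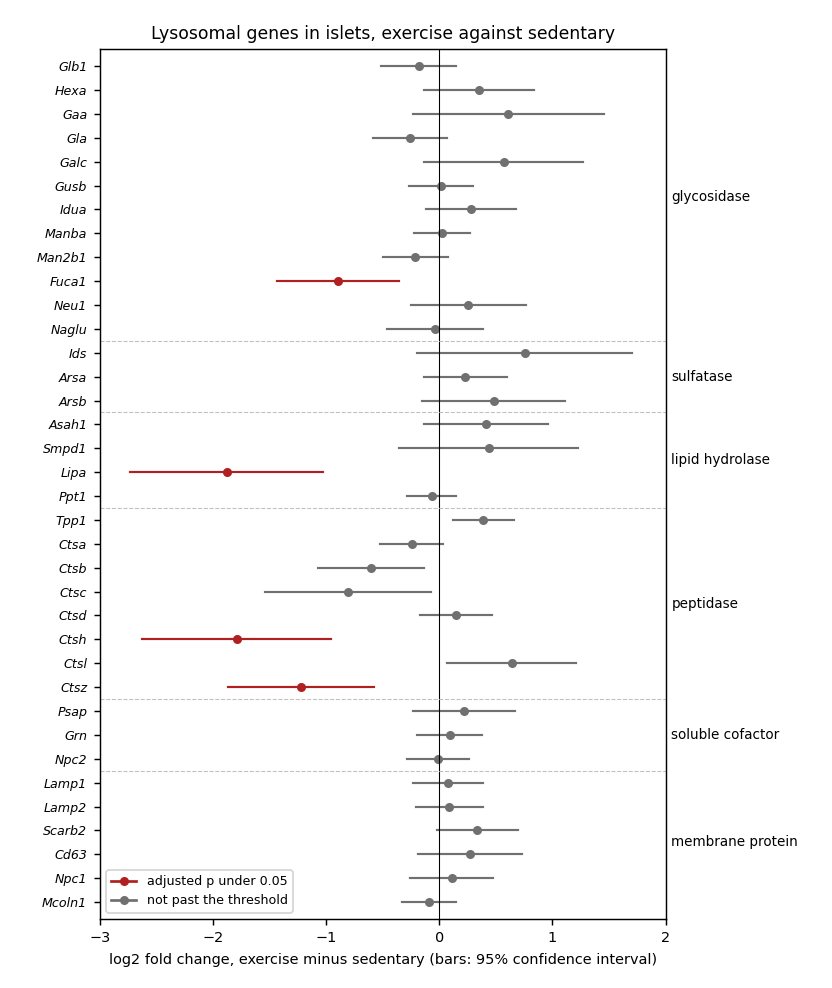
Log2 fold change of each of the 36 genes, exercise minus sedentary (x axis), with its 95% confidence interval from the edgeR fit, genes ordered by role (y axis). The red points Fuca1, Lipa, Ctsh and Ctsz, at -0.89, -1.88, -1.79 and -1.22, passed an adjusted p of 0.05; the grey points did not.

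Lipa (ENSMUSG00000024781) encodes lysosomal acid lipase, which frees cholesterol and fatty acids from the esters that lysosomes take up. It had 16.4, 8.85, 13.5, 9.47 and 14.99 CPM in exercise 6 to 10, against 80.9, 69.9, 30.2, 21.5 and 30.3 CPM in sedentary 1 to 5. The groups did not overlap, and sedentary 1 and 2 held the highest levels. The log2 fold change was -1.88 ± 0.39 (SE, edgeR adjusted p = 0.0128), a level 3.68-fold lower in exercise, and -1.08 without sedentary 1 and 2 (edgeR adjusted p = 0.009). Lipa passed in each fit that left out 1 library, with log2 fold changes of -2.06 to -1.59.

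Ctsh (ENSMUSG00000032359) encodes cathepsin H, a cysteine protease that mainly removes residues from the amino end of proteins. It had 16.0, 9.76, 10.6, 16.7 and 16.0 CPM in exercise 6 to 10, against 70.4, 79.6, 33.1, 18.2 and 38.2 CPM in sedentary 1 to 5. Again sedentary 1 and 2 were highest, while sedentary 4, at 18.2 CPM, lay close to the highest exercise library. The log2 fold change was -1.79 ± 0.38 (SE, edgeR adjusted p = 0.0142), or 3.46-fold lower in exercise, and -1.08 without sedentary 1 and 2 (edgeR adjusted p = 0.022). It passed in each fit that left out 1 library.

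Ctsz (ENSMUSG00000016256), the gene of the carboxypeptidase cathepsin Z, had 47.4, 32.3, 37.1, 42.2 and 43.0 CPM in exercise 6 to 10, against 133, 145, 59.6, 50.3 and 83.4 CPM in sedentary 1 to 5. The nearest libraries were exercise 6 and sedentary 4. The log2 fold change was -1.22 ± 0.29 (SE, edgeR adjusted p = 0.0228) and -0.65 without sedentary 1 and 2. It did not pass with exercise 7, 8, 9 or 10 left out (edgeR adjusted p of at most 0.0651).

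Fuca1 (ENSMUSG00000028673) encodes the alpha-fucosidase that trims fucose from glycoproteins. It had 45.1, 35.1, 37.5, 33.4 and 35.8 CPM in exercise 6 to 10, against 78.6, 114, 49.2, 46.1 and 59.0 CPM in sedentary 1 to 5. The groups were separated only narrowly, by exercise 6 and sedentary 4. The log2 fold change was -0.89 ± 0.24 (SE, edgeR adjusted p = 0.037) and -0.44 without sedentary 1 and 2. It did not pass with sedentary 1 or any 1 exercise library left out (edgeR adjusted p of at most 0.0976).

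**Figure D2:**
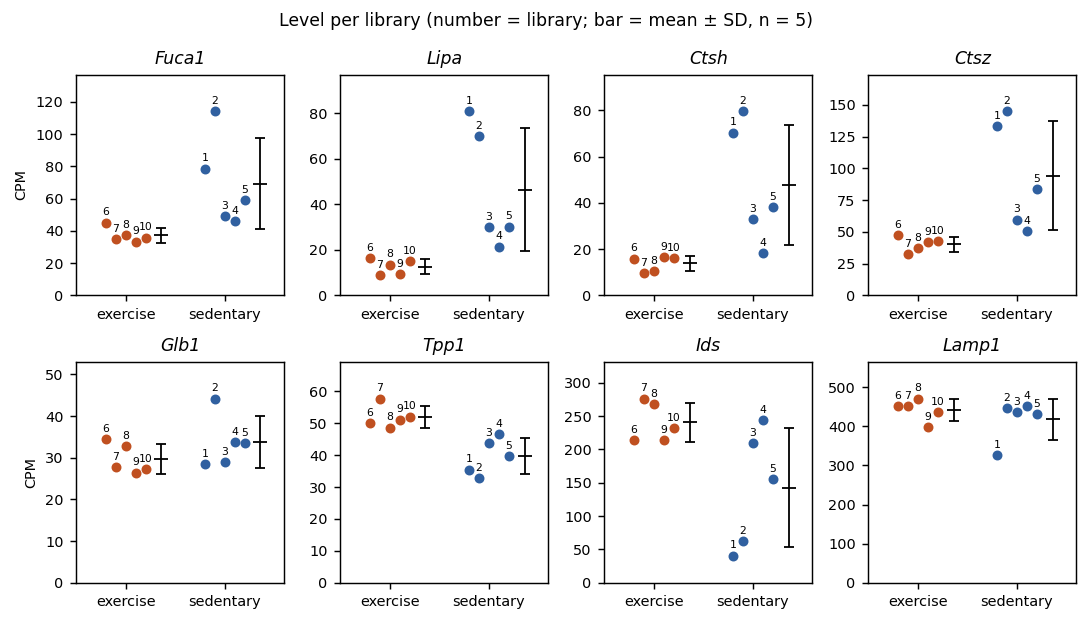
CPM (y axis, from 0) of 8 of the genes in each library, exercise on the left and sedentary on the right; numbers name the libraries and bars are mean ± SD, n = 5. Fuca1, Lipa, Ctsh and Ctsz are lower in every exercise library, Tpp1 is higher in every exercise library, and Glb1, Ids and Lamp1 overlap between the groups.

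Glb1 (ENSMUSG00000045594), the source of senescence-associated beta-galactosidase, did not pass. It had 34.5, 27.8, 32.8, 26.4 and 27.2 CPM in exercise 6 to 10, against 28.4, 44.2, 29.0, 33.7 and 33.5 CPM in sedentary 1 to 5. The groups overlapped, and the highest level, in sedentary 2, was 1.67-fold the lowest, in exercise 9. The log2 fold change of -0.18 had a 95% interval of -0.51 to 0.15 (edgeR adjusted p = 0.383), and it was -0.082 without sedentary 1 and 2. In the lysosome beta-galactosidase is held in a complex with the protective protein of Ctsa and the sialidase of Neu1. Ctsa had 75.6 ± 3.43 CPM in exercise and 89.5 ± 13.7 CPM in sedentary islets, and Neu1 44.2 ± 3.99 and 37.0 ± 12.8 CPM. Neither passed (edgeR adjusted p = 0.197 and 0.424).

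Apart from Fuca1, the other glycosidases did not pass either. Hexa, the alpha subunit of beta-hexosaminidase, had 125 to 148 CPM in exercise and 58.1 to 138 CPM in sedentary libraries. Gaa, the acid alpha-glucosidase that degrades glycogen, had 154 ± 14.8 CPM in exercise and 101 ± 55.0 CPM in sedentary islets, where sedentary 1 and 2 lay at 29.8 and 57.2 CPM. Galc, which removes galactose from galactosylceramide, had 18.8 ± 1.57 CPM in exercise and 12.7 ± 6.05 CPM in sedentary islets. The group means were closest for the beta-mannosidase gene Manba, at 19.9 ± 0.43 CPM in exercise and 19.6 ± 2.07 CPM in sedentary islets, and the beta-glucuronidase gene Gusb, at 35.3 ± 3.98 and 35.0 ± 4.32 CPM. Their 95% intervals of the log2 fold change ran from -0.23 to 0.27 and from -0.27 to 0.30. Gla, Idua, Man2b1 and Naglu, which act on galactosides, heparan and dermatan sulfate, mannosides and heparan sulfate, had log2 fold changes of -0.26, 0.28, -0.21 and -0.036.

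None of the 3 sulfatases and, apart from Lipa, none of the lipid hydrolases passed. Ids, which removes sulfate from heparan and dermatan sulfate, had 213, 276, 268, 214 and 232 CPM in exercise 6 to 10, against 40.9, 62.9, 209.8, 244 and 155 CPM in sedentary 1 to 5. It had the widest range of the 36 genes after Lipa and Ctsh, 6.75-fold from the lowest to the highest library, and the sedentary libraries 1 and 2 set its low end. Its log2 fold change of 0.75 had a 95% interval of -0.20 to 1.71 (edgeR adjusted p = 0.234), and was 0.27 without sedentary 1 and 2. Arsa and Arsb, sulfatases of sulfatide and of dermatan sulfate, had log2 fold changes of 0.23 and 0.48. The ceramidase gene Asah1 had 143 ± 12.9 CPM in exercise and 107 ± 39.1 CPM in sedentary islets, and the sphingomyelinase gene Smpd1 53.8 ± 4.29 and 39.7 ± 21.3 CPM. The palmitoyl thioesterase gene Ppt1 ranged from 47.4 to 54.6 CPM in exercise and from 46.5 to 55.9 CPM in sedentary libraries.

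Among the 8 peptidases Ctsh and Ctsz fell and none rose, with 3 log2 fold changes above 0 and 5 below it. Tpp1, which removes tripeptides from the amino end of proteins, had 50.01, 57.7, 48.7, 51.2 and 52.1 CPM in exercise 6 to 10, against 35.5, 32.9, 43.8, 46.5 and 39.8 CPM in sedentary 1 to 5. Every exercise library lay above every sedentary library, as for 6.24% of all tested genes, but the test missed the threshold (log2 fold change 0.39, edgeR adjusted p = 0.059). It was passed without sedentary 4 (0.45, edgeR adjusted p = 0.0289), a fit in which 889 genes were higher and 2721 lower over all genes, and missed without sedentary 1 and 2 (0.29, edgeR adjusted p = 0.0717). Ctsl, the cysteine protease cathepsin L, had 119.8, 105, 126, 132 and 98.1 CPM in exercise 6 to 10, against 50.02, 39.8, 86.0, 102 and 96.3 CPM in sedentary 1 to 5. The groups overlapped through exercise 10, and the log2 fold change was 0.64 (95% interval 0.07 to 1.21, edgeR adjusted p = 0.116). Ctsb, the cysteine protease cathepsin B, had 263, 171, 196, 183 and 181 CPM in exercise 6 to 10, against 358, 416, 247, 213 and 278 CPM in sedentary 1 to 5. Exercise 6 overlapped the sedentary libraries, and the log2 fold change was -0.61 (edgeR adjusted p = 0.0791). Ctsc, cathepsin C, which activates the serine proteases of granulocytes and lymphocytes, had 28.2 ± 8.72 CPM in exercise and 49.5 ± 23.4 CPM in sedentary islets (edgeR adjusted p = 0.12). Without sedentary 4 both passed as lower, Ctsb at -0.71 (edgeR adjusted p = 0.0352) and Ctsc at -0.97 (edgeR adjusted p = 0.0482). Neither did so without sedentary 1 and 2, with Ctsb at -0.28 (edgeR adjusted p = 0.255) and Ctsc at -0.22 (edgeR adjusted p = 0.587). The aspartic protease gene Ctsd had 254 ± 25.2 CPM in exercise and 229 ± 34.3 CPM in sedentary islets (edgeR adjusted p = 0.457). Within a library the ratio of Ctsd to Ctsb, chosen after the values were seen, was 1.13 to 1.41 in exercise, against 0.568 and 0.462 in sedentary 1 and 2 and 0.895 to 1.22 in sedentary 3 to 5. It was not tested.

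None of the cofactors and membrane proteins passed. Psap, the precursor of the saposins that present sphingolipids to their hydrolases, had 821 to 948 CPM in exercise, against 549.8, 534, 822, 915 and 964 CPM in sedentary 1 to 5. Sedentary 1 and 2 were the lowest and the other libraries overlapped (log2 fold change 0.22, edgeR adjusted p = 0.445). Grn, the progranulin gene, and Npc2, which hands cholesterol to Npc1 for export, had log2 fold changes of 0.091 and -0.014. Lamp1, with Lamp2 a main glycoprotein of the lysosomal membrane, had 452, 452, 471, 397 and 435 CPM in exercise 6 to 10, against 326, 446, 435, 451 and 432 CPM in sedentary 1 to 5. Only sedentary 1 lay outside the exercise range. The 95% interval of its log2 fold change was -0.23 to 0.39, and that of Lamp2, at 169.9 ± 11.6 CPM in exercise and 160.0 ± 23.6 CPM in sedentary islets, was -0.21 to 0.38. Mcoln1, the calcium channel TRPML1 of the lysosome, ranged from 22.5 to 24.5 CPM in exercise and from 22.8 to 28.2 CPM in sedentary libraries (95% interval -0.33 to 0.14). Scarb2, the receptor that carries glucocerebrosidase to the lysosome, lay above every sedentary library in every exercise library, at 124 to 138 CPM against 67.9 to 123 CPM (log2 fold change 0.33, edgeR adjusted p = 0.17). The tetraspanin gene Cd63 and the cholesterol exporter gene Npc1 had log2 fold changes of 0.27 and 0.11. Of the 32 genes that did not pass, 14 had a 95% interval within a 1.5-fold change in either direction and 24 within a 2-fold change.

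Per kilobase of transcript, the order of levels was alike at its top in both groups. On this scale Psap led with a mean level of 331 CPM per kilobase in exercise and 285 in sedentary islets. It was followed by Lamp1 (198 and 188), Cd63 (167 and 138) and Ctsd (119.5 and 108). Gla was lowest in both, at 1.97 and 2.35 CPM per kilobase. Ids ranked 7 of 36 in exercise and 13 in sedentary islets, and Ctsb ranked 10 in exercise and 6 in sedentary islets. Lengths were those of principal coding transcripts in GENCODE M21, which may differ from the isoforms present.

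The spread between libraries was wider in the sedentary group. The coefficient of variation had a median over the 36 genes of 9.28% in exercise and 25.3% in sedentary libraries, and was larger in the sedentary group for 35 of 36 genes, Gla being the exception. Over all tested genes the medians were 14.0% and 37.8%. Over sedentary 3 to 5 alone the median of the 36 was 10.6%. In 19 of the 36 genes (52.8%) sedentary 1 and 2 were the 2 lowest of the 10 libraries, against 27.2% of all tested genes. These 19 included all 3 sulfatases and 7 of the 12 glycosidases. In 8 genes (22.2%), Man2b1, Fuca1, Lipa, Ctsa, Ctsb, Ctsc, Ctsh and Ctsz, sedentary 1 and 2 were the 2 highest, against 29.4% of all tested genes. Of these 8, 5 were peptidases. The summed level of the 36 genes was 3791 to 4256 CPM in exercise and 3092 to 4150 CPM in sedentary libraries, lowest in sedentary 1 and 2. As a share of all counts, with no TMM scaling, the 36 made up 0.359%, 0.374%, 0.399%, 0.253% and 0.408% in exercise 6 to 10, against 0.328%, 0.384%, 0.462%, 0.459% and 0.492% in sedentary 1 to 5, and exercise 9 was lowest.

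**Figure D3:**
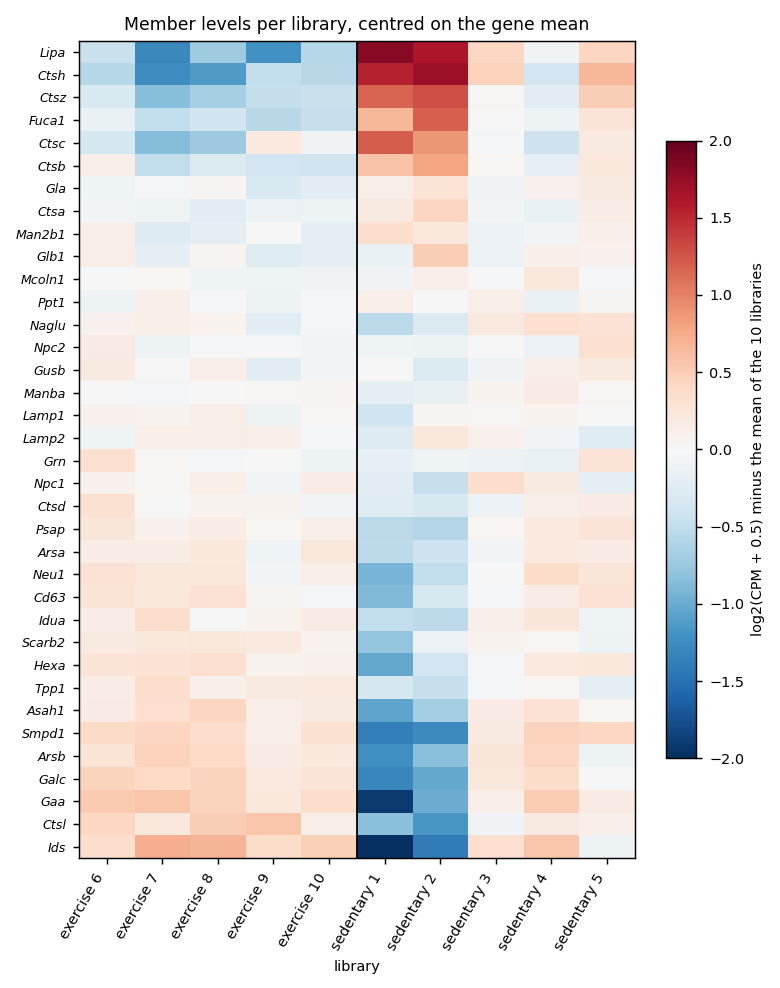
Level of each gene (rows, ordered by log2 fold change) in each library (columns, exercise left of the line), as log2(CPM + 0.5) minus the mean of the 10 libraries. Sedentary 1 and 2 hold the strongest colours, high for Lipa, Ctsh, Ctsz and Fuca1 at the top and low for Gaa, Ctsl and Ids at the bottom.

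Markers of some other cell types passed the test between the groups, and those of others did not, which does not show equal levels. The 20 markers of small intestinal epithelium were all lower in exercise (edgeR adjusted p under 0.05 for each), and their sum was highest in sedentary 1 and 2, the libraries where Lipa, Ctsh, Ctsz and Fuca1 were highest. Without these libraries the 20 markers remained lower, with a median log2 fold change of -3.09. Its most abundant markers, Apoa4 and Alpi, had 119.5 ± 98.3 and 51.2 ± 32.7 CPM in exercise and 2076 ± 1500.4 and 1167 ± 1016 CPM in sedentary islets. Of 22 acinar markers 11 rose and 0 fell, and their sum was 196210 to 534451 CPM in exercise and 85563 to 177897 CPM in sedentary libraries. Without sedentary 1 and 2, 14 of the 22 rose and 0 fell. The part of intestinal and acinar RNA in the lysosomal values was not tested. The sum of 18 macrophage markers overlapped between the groups, at 274 to 665 CPM in exercise, against 638, 174, 469, 491 and 982 CPM in sedentary 1 to 5. The part of macrophage RNA in the lysosomal values was not tested. Among the 18, Cd163 rose and Ctss fell, while without sedentary 1 and 2 Cd163 and Mrc1 rose and none fell. The sum of 12 lymphocyte markers was 515 to 1600 CPM in exercise, against 11153 CPM in sedentary 1 and 151 to 2060 CPM in sedentary 2 to 5, and 1 of the 12, Cd8a, fell. Of 11 duct markers, which summed to 421 to 745 CPM in exercise and 617 to 3479 CPM in sedentary libraries, 5 fell. They were Krt8, Krt19, Epcam, Cftr and Car2, which are also made by intestinal epithelium. The part of intestinal RNA in the duct marker values was not tested. No marker of endothelial cells (10 genes, 318 to 407 CPM in exercise and 95.8 to 377 CPM in sedentary libraries) or of fibroblasts and stellate cells (10 genes, 123 to 176 and 44.9 to 229 CPM) passed. Nor did any marker of beta cells (10 genes), alpha cells (5 genes, 4248 to 6516 CPM in exercise and 455 to 16127 CPM in sedentary libraries) or delta and PP cells (5 genes, 2413 to 3658 and 223 to 4777 CPM). Some of these lists held calls without sedentary 1 and 2, where 4.1% of all tested genes were higher and 8.68% lower. The endothelial marker Flt1 (log2 fold change 0.49, edgeR adjusted p = 0.0183) and the beta cell marker G6pc2 (0.85, edgeR adjusted p = 0.0121) rose. The fibroblast and stellate cell marker Lum fell (-1.45, edgeR adjusted p = 0.018). No alpha, delta or PP cell marker passed in that fit. No marker in any of these lists was at 0 counts in all libraries.

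**Figure D4:**
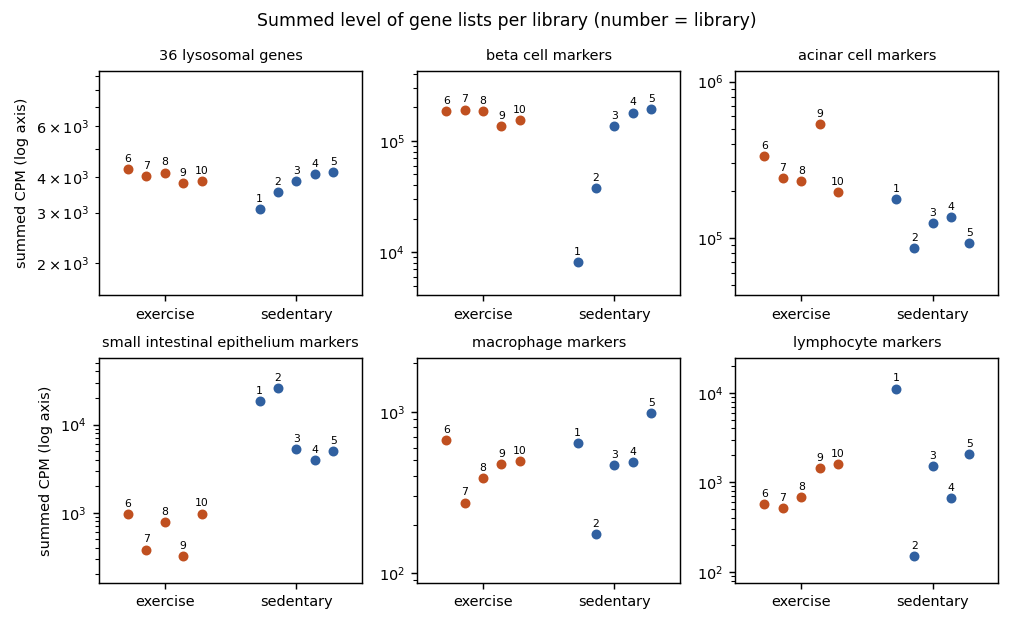
Summed CPM (y axis, log scale) of the 36 lysosomal genes and of 5 marker lists in each library, exercise left and sedentary right, with library numbers. The lysosomal sum stays between 3092 and 4256 CPM, while sedentary 1 and 2 are lowest for beta cell markers and highest for intestinal markers.

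Other genes of the lysosome were read from 7 lists, against a background of 11.4% of all tested genes lower and 2.44% higher. Of 35 other lysosomal hydrolases tested, 8 fell (22.9%) and 0 rose, with a median log2 fold change of -0.10. Smpdl3b, a phosphodiesterase of the sphingomyelinase family, had 1.47 ± 0.81 CPM in exercise and 23.1 ± 17.5 CPM in sedentary islets (log2 fold change -3.96, edgeR adjusted p = 0.009). The acid phosphatase gene Acp5 had 7.68 ± 2.04 and 48.8 ± 36.2 CPM (log2 fold change -2.66, edgeR adjusted p = 0.0104) and the sulfatase gene Arsg 3.21 ± 0.79 and 7.99 ± 2.76 CPM (log2 fold change -1.31, edgeR adjusted p = 0.0136). These 3 passed in each fit that left out 1 library. Naaa, Ctss, Ctsw and Rnaset2a were also among the 8, and the reads of Rnaset2a are uncertain because Rnaset2b is a near copy. Each of these 4 lost its call without exercise 6, 7, 8 or 9 or sedentary 1 or 2, and, except Ctsw, without exercise 10. Ctss and Rnaset2a also lost it without sedentary 5 (edgeR adjusted p of at most 0.121). Without sedentary 1 and 2 together, where 8.68% of all tested genes were lower and 4.1% higher, 4 of 36 fell (11.1%), among them Smpdl3b, Acp5 and Arsg, and 1 rose, Ctsf, which encodes cathepsin F.

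Of 40 other lysosomal membrane proteins, 2 fell (5.00%) and 0 rose, also without sedentary 1 and 2. They were the channel gene Mcoln2, at 0.84 ± 0.44 CPM in exercise and 6.02 ± 5.01 CPM in sedentary islets, and the iron transporter gene Slc11a2, at 24.2 ± 3.27 and 75.3 ± 47.6 CPM. With exercise 7 or 8 left out neither gene passed, nor did Slc11a2 with exercise 9 or 10 left out (edgeR adjusted p of at most 0.0517 for Mcoln2 and 0.0615 for Slc11a2). Sidt1 had a log2 fold change of -2.33 and did not pass (edgeR adjusted p = 0.0667). Of 19 tested subunits of the vacuolar proton pump, which acidifies the lysosome, 1 fell (5.26%) and 0 rose. Their median log2 fold change was 0.33, and 0.13 without sedentary 1 and 2. The one that fell, Atp6v0a2, had 46.1 ± 2.92 CPM in exercise and 104 ± 61.9 CPM in sedentary islets, with 134 and 199 CPM in sedentary 1 and 2, and it did not pass when sedentary 1, sedentary 2 or any 1 exercise library was left out (edgeR adjusted p of at most 0.108), but passed with sedentary 1 and 2 left out together (log2 fold change -0.40, edgeR adjusted p = 0.0235). Tcirg1 and Atp6v1c1 followed at log2 fold changes of -0.77 and 0.48 (edgeR adjusted p = 0.1 and 0.132).

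None of 23 genes of enzyme sorting and maturation passed, with or without sedentary 1 and 2. The smallest p belonged to Ap3d1, an adaptor subunit, at 177 ± 9.51 CPM in exercise and 127 ± 27.2 CPM in sedentary islets (edgeR adjusted p = 0.0723), followed by Vps26a and Ldlrad4 (0.137 and 0.199). Of 6 tested cathepsin inhibitors Cst6, encoding cystatin E/M, fell to 2.60 ± 1.15 CPM in exercise, against 14.9 ± 10.7 CPM in sedentary islets (log2 fold change -2.51, edgeR adjusted p = 0.0111). Serpinb6a (-1.07) and Cst7 (-2.80) did not pass (edgeR adjusted p = 0.0511 and 0.0551). Cst6 and Serpinb6a fell without sedentary 1 and 2 (33.3% of the 6, against 8.68% of all tested genes). The log2 fold change of Serpinb6a was then -0.37 (edgeR adjusted p = 0.042). TFEB itself is encoded by Tfeb, which had 5.70, 4.10, 5.75, 6.76 and 7.66 CPM in exercise 6 to 10, against 13.9, 11.5, 8.54, 5.31 and 11.0 CPM in sedentary 1 to 5. The groups overlapped through sedentary 4 (log2 fold change -0.74, edgeR adjusted p = 0.0868). With 1 library left out the edgeR adjusted p ran from 0.0194, without sedentary 4, to 0.188, and without sedentary 1 and 2 the log2 fold change was -0.43 (edgeR adjusted p = 0.297). Its relative Tfe3 had 26.6 ± 1.39 CPM in exercise and 25.2 ± 1.79 CPM in sedentary islets (edgeR adjusted p = 0.586). In the list of these factors and of the machinery that docks the kinase mTORC1 on lysosomes, Foxo3 rose and Ppargc1a fell among 26 tested genes (3.85% each way), with Foxo1 next (log2 fold change 0.42, edgeR adjusted p = 0.061). Foxo3 had 83.3 ± 25.1 CPM in exercise and 47.3 ± 5.14 CPM in sedentary islets, and Ppargc1a 4.36 ± 0.75 and 15.2 ± 10.8 CPM. Foxo3 did not pass with exercise 6 or 7 left out, and Ppargc1a not with sedentary 1 or any 1 exercise library left out (edgeR adjusted p of at most 0.0576 and 0.0643). Without sedentary 1 and 2, 3 genes of this list rose (11.5%), namely Foxo1, Foxo3 and Fnip2, and 1 fell (3.85%), Ppargc1a. In that fit 4.1% of all tested genes were higher and 8.68% lower. Of 41 autophagy genes, which deliver cargo to the lysosome, 2 rose (4.88%) and 1 fell (2.44%), with a median log2 fold change of 0.14. Map1lc3b, encoding the LC3B protein of the autophagosome membrane, had 151, 147, 139, 146 and 125 CPM in exercise 6 to 10, against 78.1, 84.9, 96.4, 106 and 109 CPM in sedentary 1 to 5. The groups did not overlap (log2 fold change 0.57, edgeR adjusted p = 0.0187), but the gene did not pass with exercise 6, 7 or 8 left out (edgeR adjusted p of at most 0.0557). The autophagy kinase gene Ulk1 rose by 0.65 on the log2 scale but did not pass with exercise 6, 7, 8 or 9 or sedentary 5 left out (edgeR adjusted p of at most 0.0695). Optn, an autophagy receptor gene, fell to 8.64 ± 1.44 CPM in exercise, against 35.0 ± 22.99 CPM in sedentary islets (edgeR adjusted p = 0.0115). Without sedentary 1 and 2, 4 autophagy genes rose (9.76%, against 4.1% of all tested genes), namely Ulk1, Map1lc3b, Gabarapl1 and Calcoco1. In the same fit 1 fell (2.44%, against 8.68%), Optn.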

How the data were processed

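RNA of isolated islets was sequenced as stranded mRNA libraries, per the labels' protocols. The authors deposited estimated counts per gene, which were rounded before testing; the submitters' processing notes name fastp and kallisto without versions. Genome build, annotation and the summing of transcripts were not given in the sources used here. About 12.6% of the values were fractional (tolerance 1e-06), among them values of 22 of the 36 genes, as occurs when reads are shared between transcripts. None of the 36 had the same values as another gene (tolerance 0.001). Symbols came from GENCODE M21.

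The 15298 genes passing edgeR's default filter (minimum count 10, minimum total 15), all 36 among them, were fitted together in R 4.3.3 with edgeR 4.0.16 (quasi-likelihood, TMM, Benjamini-Hochberg adjustment, threshold 0.05). SE is the absolute log2 fold change over the root of F. Reads carry no molecular identifiers, so amplification error is not covered. In simulated data for this comparison (15298 genes), 21 of 100 changes of 2-fold were found, and 83 of 100 of 4-fold.

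Members, lists, tests and alternatives were chosen with earlier results of these data known. Values per library are given for genes that passed and for Glb1, Lamp1, Lamp2, Ctsb, Ctsd, Ctsl, Psap and Mcoln1, in part as ranges or means. The 3 genes of smallest p are named per pathway list, plus Tfeb and Tfe3, and the 2 most abundant markers of the intestinal list. Other genes with values were picked after these were seen. Alternatives were 3 scalings, acinar genes left out of the scaling, 2 filters, DESeq2 1.42.0, voom of limma 3.58.1, each library left out, and sedentary 1 and 2 left out together. The labels name no batch. A gene of the hydrolase list is not reported here.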

Additional observations from a re-analysis of the deposited data

Results flagged for a closer look

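Chance marks about 1 in 20 groups of 5 libraries by the gap test used here (gap to the nearest library over the group's range above 0.71), and 7 of 72 groups were marked. In the exercise group, exercise 6 was far above the rest for Ctsb (263 CPM, next 196) and Npc2 (108 CPM, next 94.4), and exercise 9 far below for Arsa (23.9 CPM, next 28.2). In the sedentary group, sedentary 5 was far above for Grn (108 CPM, next 83.7) and Npc2 (119.7 CPM, next 94.8). Sedentary 1 was far below for Lamp1 (326 CPM, next 432) and Scarb2 (67.9 CPM, next 108). None of these 6 genes passed the test of exercise against sedentary.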

How the results depend on the processing

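Direction and side of the threshold held for all 36 genes with RLE size factors, without acinar genes in the scaling and with both other filters. Lower and higher counts over the 36 were 4 and 0, with 8 lower for library totals alone, where Man2b1, Ctsa, Ctsb and Ctsc joined. With DESeq2 5 were lower, with Ctsb added, and 1 higher, Tpp1. With limma-voom 0 were lower, as the 4 had adjusted p of 0.0512 to 0.0667. Leaving out 1 library gave 2 to 6 lower and 0 to 1 higher. Over all genes, 159 were higher and 4408 lower with library totals, 1097 and 2642 with DESeq2, and 177 and 339 with limma-voom. Without sedentary 1 and 2, 644 were higher. Leaving out 1 library gave 132 to 889 higher and 800 to 2721 lower.

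No called gene changed direction. Estimates of genes that had not passed changed sign as follows, none of them past the threshold. With library totals, which moved the median of all genes to -0.34, they were Gusb -0.32, Idua -0.063, Manba -0.32, Neu1 -0.088, Arsa -0.10, Ctsd -0.20, Psap -0.13, Grn -0.26, Lamp1 -0.26, Lamp2 -0.25, Scarb2 -0.017, Cd63 -0.081 and Npc1 -0.23. With upper-quartile scaling, which moved it to 0.10, they were Naglu 0.045, Ppt1 0.036, Npc2 0.080 and Mcoln1 0.015. Without sedentary 1 and 2 they were Gusb -0.039, Manba -0.052, Neu1 -0.020, Smpd1 -0.0064, Psap -0.0081 and Npc1 -0.040. With 1 library left out, Gusb ran from -0.049 to 0.12, Manba from -0.021 to 0.073, Naglu from -0.15 to 0.061, Npc2 from -0.057 to 0.075 and Lamp1 from -0.00054 to 0.16. The cause of these changes was not tested. No paired analysis was possible because the groups share no replicate number. At this spread only 21 of 100 simulated 2-fold changes were recovered, so a missed threshold does not show equal levels.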
